A study of Mus musculus with 6 samples.

Results

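AU-rich element binding proteins attach to adenine- and uridine-rich stretches, built around the pentamer AUUUA, in the untranslated tails of mRNAs. They were examined here in single mouse oocytes as the genes Zfp36, Zfp36l1, Zfp36l2, Elavl1, Elavl2, Khsrp, Tia1 and Tial1. Members were the probes annotated with one of these symbols alone, which gave 6 probes for 6 of the 8 genes, out of 33012 probes and 13840 different named genes on the array. Elavl1 and Tia1 had no such probe in the annotation used and are not analysed here. Each array held the amplified RNA of 1 oocyte. The groups were 3 Ago2-deficient mature oocytes from [Ago2F/F, Zp3-Cre] conditional knockout females and 3 wild-type oocytes labelled as germinal vesicle (GV) stage, from adult females. In the mutants the floxed Ago2 alleles are removed by a Cre recombinase under the promoter of Zp3, which is active in growing oocytes. The labels do not give the state of the alleles in the individual oocytes that were arrayed. The GV labels also say that these cells came from oviducts and were freed of cumulus cells, as the methods say of ovulated oocytes. Genotype and the labelled stage differed together between the groups and cannot be told apart.

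The family works by opposing means. Zfp36 (tristetraprolin), Zfp36l1 and Zfp36l2 are zinc finger proteins that bring the CCR4-NOT deadenylase to an mRNA and shorten its life, and Zfp36l2 is known to be needed for female fertility in mice. Khsrp also promotes decay and assists the maturation of some miRNA precursors. Elavl proteins generally protect or control the translation of the mRNAs they bind, and Elavl2 is a form found in neurons and germ cells. Tia1 and Tial1 silence translation and gather mRNAs in stress granules. Oocytes that no longer transcribe depend on such proteins for the storage and removal of maternal mRNA.

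The array of each oocyte was read as a signal, a signal-to-noise ratio and a quantile-normalized log2 signal. Detection was set at a signal-to-noise ratio of 3 or more. Each Ago2-deficient array had 4620 to 6798 detected probes, and each GV array had 10650 to 11334. The median signal of undetected probes was 145 to 231 in the former and 70.8 to 83.3 in the latter. The Ago2 probe was detected on 1 GV array only, and it is no check of the genotype because the sources used here do not place it against the deleted exons. Of 10 oocyte markers, 8 were found on every Ago2-deficient array and 10 on every GV array. Zp2 and Figla were found on no Ago2-deficient array. The summed linear level of the oocyte markers ran from 1300000 to 1500000 in the Ago2-deficient and from 4930000 to 5170000 in the GV oocytes. Of 15 cumulus and granulosa markers on the array, none was found on every Ago2-deficient array, and 3 (Inha, Hsd17b1 and Nr5a2) were found on every GV array. Their summed linear level ran from 3030 to 3980 in the Ago2-deficient and from 4830 to 7480 in the GV oocytes, and their part in the results below was not tested.

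In the Ago2-deficient mature oocytes Zfp36 and Khsrp were higher, and Zfp36l1, Elavl2 and Tial1 were lower, than in the wild-type GV oocytes. Zfp36l2 was not called. Khsrp turned to slightly lower, and not called, with median scaling, which gives all arrays an equal median. With no scaling Khsrp was not called either, at 0.52 on the log2 scale (adjusted p = 0.462 from limma). Calls required an adjusted p under 0.05 from limma and more than a 2-fold change, over 7915 tested genes, each detected throughout 1 or both groups. Thus 5 of the 6 members were called, beside 62.2% of all tested genes, so the share itself says nothing particular about the members. Higher were 2 of 6, beside 17.4% of all tested genes, and lower were 3 of 6, beside 44.8%. The arrays of the groups did not overlap in 5 of the 6, beside 70.4% of tested genes. Zfp36l1, Zfp36l2 and Elavl2 passed the filter only through the GV arrays, which favours lower values in the other group. Zfp36, Khsrp and Tial1 were detected on all 6 arrays. Of the 2497 genes detected so, 43.5% were called higher and 20.2% lower. The median log2 difference of all tested genes was -1.39, and that of the 6 members was -1.13.

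**Figure D1:**
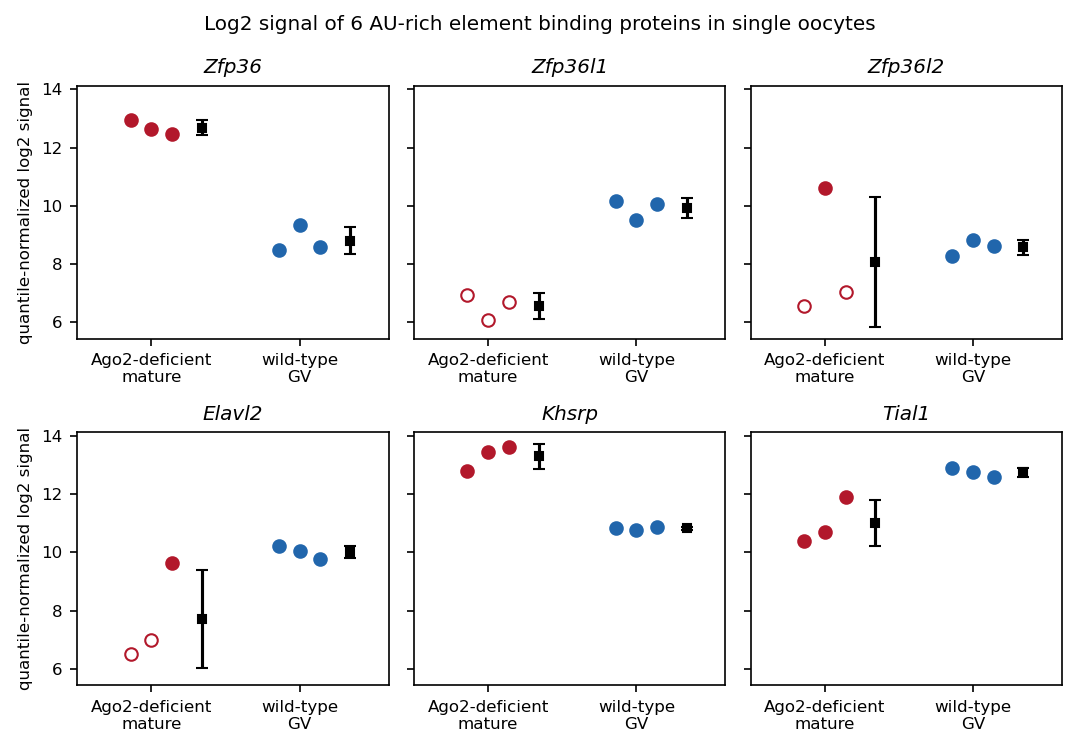
Quantile-normalized log2 signal (vertical axis) of the 6 members in single Ago2-deficient mature (red) and wild-type GV (blue) oocytes; each circle is 1 array, filled where the probe was detected and open where it was not, and each square gives the mean with its SD (bar, n = 3). On these values Zfp36 and Khsrp lie higher in all 3 Ago2-deficient oocytes (Khsrp not with median scaling or with no scaling). Zfp36l1, Elavl2 and Tial1 lie lower, and for Zfp36l2 a single Ago2-deficient oocyte, at 10.63, lies above all GV oocytes. Heights are not comparable between probes.

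Sequences are shown for 3 members, since Zfp36 and Khsrp were both higher on the quantile-normalized values and Zfp36l1, a close relative of Zfp36, moved the other way. Khsrp was not called with median scaling or with no scaling. They are the 100 bases before the annotated start, from RefSeq on GRCm38.p6, all on the minus strand and written 5′ to 3′. Promoter entries were found for 7 of the 8 symbols, and not for Zfp36l2. Capitals mark matches on either strand to a TATA box (TATAAA), a GC box (GGGCGG) or a CCAAT box (CCAAT). The stretches lie at chr7:28379229-28379328 for Zfp36, chr17:57031508-57031607 for Khsrp and chr12:80113014-80113113 for Zfp36l1.
Zfp36: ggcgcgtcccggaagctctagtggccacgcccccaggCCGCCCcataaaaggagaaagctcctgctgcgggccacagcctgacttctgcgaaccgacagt
Khsrp: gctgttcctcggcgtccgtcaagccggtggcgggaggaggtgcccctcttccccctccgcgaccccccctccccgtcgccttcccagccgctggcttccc
Zfp36l1: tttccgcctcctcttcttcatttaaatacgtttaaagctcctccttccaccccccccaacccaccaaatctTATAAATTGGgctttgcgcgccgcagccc
Zfp36 held a GC box on the opposite strand, beginning 63 bases before the start. Zfp36l1 held a TATA box beginning 29 bases before the start, which overlaps a CCAAT box on the opposite strand at 24 bases, and the Khsrp stretch held none of these letters. Among 32851 RefSeq promoter stretches of the same length, 5.56% held the TATA box, 24.7% the GC box and 18.9% the CCAAT box. These matches describe the letters only and were not tied to the expression values.

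Zfp36 was the member with the largest increase. Its log2 signal was 12.96, 12.63 and 12.47 in Ago2-deficient replicates 1, 2 and 3 and 8.48, 9.33 and 8.58 in GV replicates 1, 2 and 3. Every Ago2-deficient oocyte lay above every GV oocyte, with a gap wider than the spread of either group. The means were 12.69 ± 0.25 and 8.80 ± 0.46 (SD, n = 3 arrays each), a log2 difference of 3.89 or 14.8-fold (standard error 0.37, adjusted p = 0.0003 from limma). This difference was at the 96.3rd percentile of all tested genes. The deposited signal, before any scaling, was likewise apart at 2171 to 4445 against 327 to 757. Signal-to-noise ratios were 7.77 to 27.29 in the Ago2-deficient and 3.75 to 7.36 in the GV oocytes, so that the GV signals stood only slightly above the detection limit. The size of the Zfp36 difference depended on the scaling. On the log2 scale it ran from 1.54 with median scaling (adjusted p = 0.0193 from limma) to 5.36 with cyclic loess, and was 2.65 with no scaling.

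Zfp36l1, which shares the zinc fingers and the decay function of Zfp36, went the other way. Its log2 signal was 6.93, 6.06 and 6.69 in Ago2-deficient replicates 1, 2 and 3, none of them detected, and 10.18, 9.53 and 10.08 in GV replicates 1, 2 and 3, all of them detected. The groups were well separated, but the Ago2-deficient values are only upper bounds on its level. By the group means it was therefore at least 10.3-fold lower (adjusted p = 0.000528 from limma). This bound ran from 8.67-fold to 11.8-fold when 1 array was left out. For such a bound, the GV mean was set against a floor on each Ago2-deficient array, namely its dimmest detected signal or the probe's own signal if that was brighter. Here and below, such bounds compare group means and leave out the spread between oocytes, so a smaller fold is not excluded. They hold for the quantile-normalized values only: under cyclic loess the log2 difference of Zfp36l1 was -2.12. The measured means were 6.56 ± 0.45 and 9.93 ± 0.35 (SD, n = 3 arrays each). Its signal-to-noise ratio reached no more than 1.72 in the Ago2-deficient oocytes and ran from 13.75 to 20.41 in the GV oocytes. The call was lost when each array was centred on the probes found in every oocyte, here called core centring (log2 difference -1.82, adjusted p = 0.0556 from limma).

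Zfp36l2, the relative tied to female fertility, showed no difference that held up against the spread between oocytes. Its log2 signal was 6.54, 10.63 and 7.03 in Ago2-deficient replicates 1, 2 and 3 and 8.29, 8.81 and 8.62 in GV replicates 1, 2 and 3. The GV oocytes were alike, whereas Ago2-deficient replicate 2 lay above all of them and the other two mutants lay below all of them, undetected. The log2 difference of -0.51 had a 95% confidence interval from -3.03 to 2.01 (standard error 1.05, adjusted p = 0.692 from limma), which leaves room for a sizeable change in either direction. Without Ago2-deficient replicate 2 it was -1.79 and called (adjusted p = 0.00844 from limma). The SD of 2.23 among the Ago2-deficient oocytes was at the 94th percentile of tested genes in that group, where the median SD was 0.74, and the GV SD of 0.27 was near the median of 0.28.

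Zfp36l1 and Zfp36l2 were the only pair of relatives for which a comparison within each array had been planned and both probes were present. The log2 signal of Zfp36l1 minus that of Zfp36l2 was 0.40, -4.56 and -0.34 in Ago2-deficient replicates 1, 2 and 3 and 1.89, 0.72 and 1.46 in the GV replicates. Zfp36l1 was undetected in all 3 mutants and Zfp36l2 in replicates 1 and 3, so each mutant value has at least 1 term under the detection limit, and those of replicates 1 and 3 have none above it. The values are given as a description, with no test of the difference between the groups. The 2 planned pairs with Elavl1 and Tia1 could not be compared.

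Elavl2, an mRNA-stabilizing and translation-controlling protein of neurons and oocytes, was lower, though the call rested on few arrays. Its log2 signal was 6.50, 7.00 and 9.65 in Ago2-deficient replicates 1, 2 and 3 and 10.22, 10.03 and 9.78 in GV replicates 1, 2 and 3. The groups did not overlap, but Ago2-deficient replicate 3, the only mutant in which Elavl2 was detected, came close to the lowest GV oocyte. The means were 7.72 ± 1.70 and 10.01 ± 0.22 (SD, n = 3 arrays each), a log2 difference of -2.30 (standard error 0.82, 95% confidence interval -4.26 to -0.33, adjusted p = 0.0458 from limma). Because 2 mutants fell under the detection limit, the size of the difference is uncertain. Without Ago2-deficient replicate 3 it was -3.26 (adjusted p = 0.00093 from limma), and without any other single array the call was lost (adjusted p = 0.0943 to 0.127). It was also lost under cyclic loess, at -0.62 (adjusted p = 0.336 from limma).

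Khsrp, the KH-domain decay factor, was clearly detected in every oocyte. Its log2 signal was 12.81, 13.46 and 13.62 in Ago2-deficient replicates 1, 2 and 3 and 10.82, 10.77 and 10.87 in GV replicates 1, 2 and 3. The GV oocytes were nearly identical, with an SD of 0.05 that was at the 2.4th percentile of tested genes, and all mutants lay well above them. The log2 difference was 2.48, or 5.58-fold (standard error 0.35, adjusted p = 0.00112 from limma). On the deposited signal, however, the groups overlapped, at 2008 to 8303 in the Ago2-deficient and 2963 to 3966 in the GV oocytes, and the signal-to-noise ratio was lower in the mutants, at 14.41 to 29.44 against 30.96 to 47.10. The increase thus depended on the scaling: the log2 difference was 0.52 with no scaling (adjusted p = 0.462 from limma) and -0.59 with median scaling (adjusted p = 0.392 from limma).

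Tial1, which silences translation and takes part in stress granules, was detected in all oocytes and was lower in the mutants. Its log2 signal was 10.40, 10.71 and 11.90 in Ago2-deficient replicates 1, 2 and 3 and 12.90, 12.76 and 12.59 in GV replicates 1, 2 and 3. The highest mutant lay below the lowest GV oocyte. The means were 11.00 ± 0.79 and 12.75 ± 0.16 (SD, n = 3 arrays each), a log2 difference of -1.75, or 3.36-fold (standard error 0.46, adjusted p = 0.0151 from limma). The separation was much wider on the deposited values, with signals of 718 to 1679 against 12445 to 19370 and signal-to-noise ratios of 6.01 to 8.16 against 69.81 to 78.96. The call was lost without GV replicate 1 (adjusted p = 0.0569 from limma) and without GV replicate 2 (adjusted p = 0.0525). Relative to the median of all tested genes, Tial1 stood at only -0.36 on the log2 scale. Relative to the median of the genes detected, like Tial1, on all 6 arrays, it stood at -2.58.

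**Figure D2:**
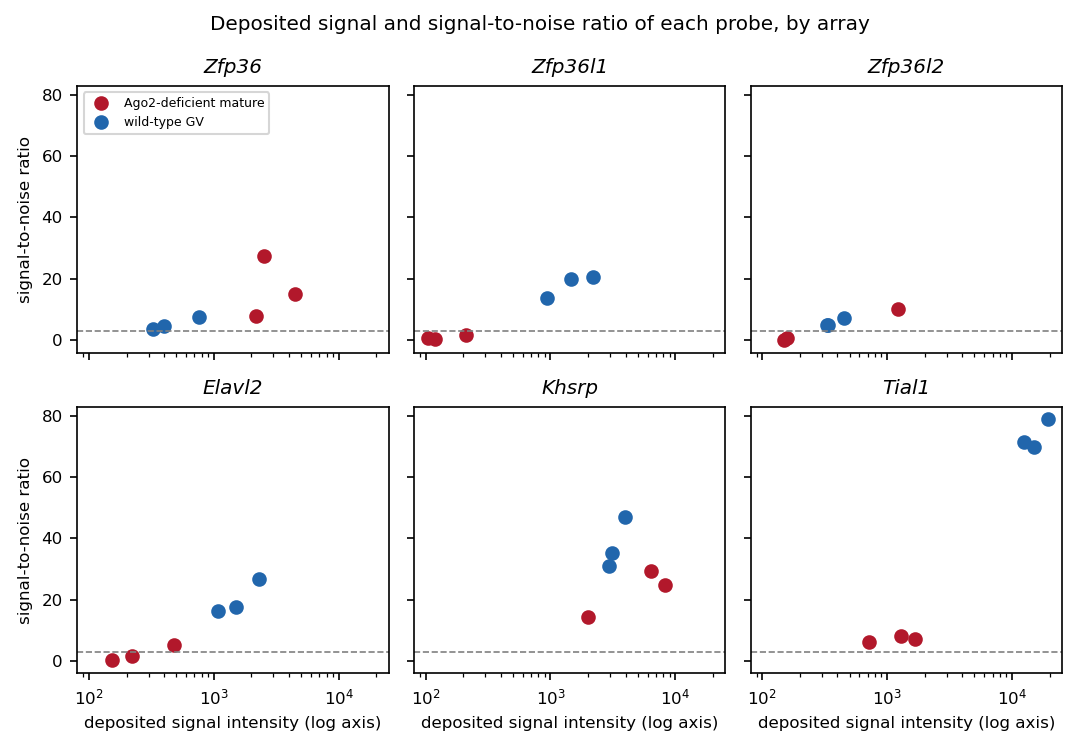
Deposited signal intensity (horizontal axis, log scale) and signal-to-noise ratio (vertical axis) of each member's probe on each array, Ago2-deficient mature in red and wild-type GV in blue; the dashed line is the detection limit of 3. Tial1 reads 69.81 to 78.96 in GV oocytes and at most 8.16 in Ago2-deficient oocytes, whereas Khsrp overlaps in signal and Zfp36 lies to the right in the Ago2-deficient oocytes.

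Since most tested genes were lower in the Ago2-deficient arrays, the differences of the members were also taken relative to the median of all tested genes. That median was -1.39 on the quantile-normalized values, -0.36 with cyclic loess, -0.42 with core centring, -1.97 with no scaling and -3.08 with median scaling. Relative to it, Zfp36 stood at 5.28 and between 4.62 and 5.72 under the other scalings. Khsrp stood at 3.87 and between 2.49 and 3.60. Zfp36l2 stood at 0.88 and between 0.57 and 1.70. The other members had a negative sign in each, with Zfp36l1 at -1.98 (-1.76 to -1.41), Elavl2 at -0.91 (-0.65 to -0.27) and Tial1 at -0.36 (-1.76 to -0.67). Median scaling, no scaling and core centring shift each array by a constant and so give the same relative values by construction, which leaves 3 separate sets of values: these, the quantile-normalized values and cyclic loess. The signs were the same in these 3 sets, but with no filter on dim probes the median of all probes was 0.13 and Zfp36l2 stood at -0.64, and without Ago2-deficient replicate 2 Zfp36l2 stood at -0.33. The median also depended on the genes taken, and was 0.83 over the 2497 genes detected on all 6 arrays. Relative to that median Zfp36 stood at 3.06, Khsrp at 1.65 and Tial1 at -2.58.

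**Figure D3:**
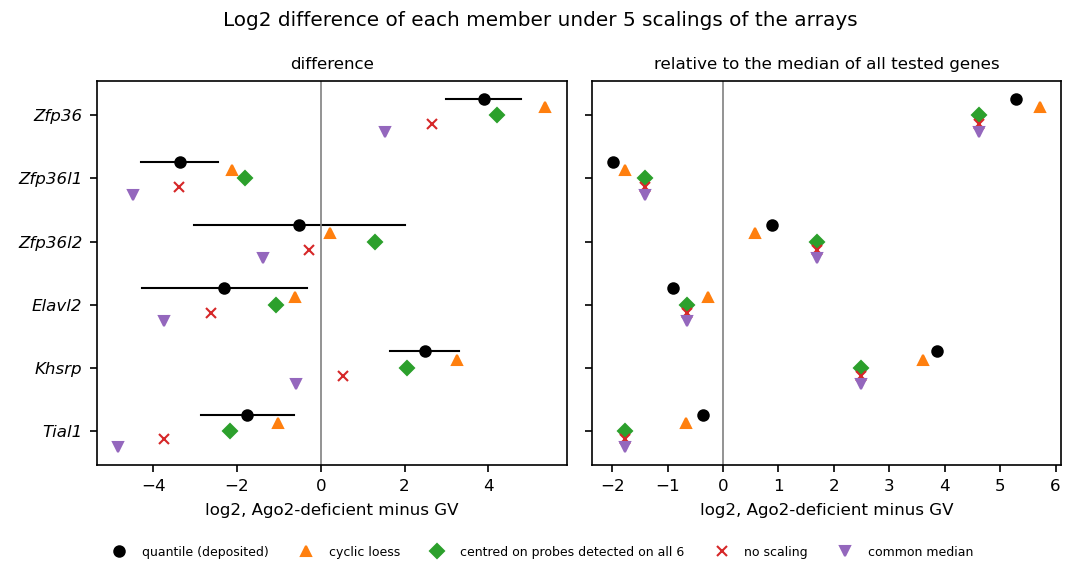
Log2 difference of each member, Ago2-deficient minus GV, under 5 scalings of the arrays (left), and the same relative to the median of all tested genes (right); bars are 95% confidence intervals of the fit to the quantile-normalized values. On the left Khsrp moves from 2.48 to -0.59 and Zfp36l2 from -0.51 to 1.29, and on the right each member stays on 1 side of 0, where 3 of the scalings give the same values by construction.

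For each member, the named tested gene with the most similar course over the 6 arrays was Rexo1 for Zfp36 (Pearson r = 0.9983), Limd1 for Khsrp (0.9982), Zfp341 for Zfp36l1 (0.9988), Trp53bp1 for Elavl2 (0.9995), Rab38 for Tial1 (0.9989) and Eif4g2 for Zfp36l2 (0.9948). Such values are common with 6 arrays in 2 separate groups, and between 20 genes (Zfp36l2) and 846 genes (Zfp36l1) of the 4567 compared exceeded 0.95. They are given as a description.

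On the quantile-normalized values, other proteins that bind AU-rich elements, or are relatives of the members, did not move as a block. Of 13 listed genes, 9 were on the array and 5 were tested. Among these 1 was called higher and 1 lower, beside 17.4% and 44.8% of all tested genes. Their median log2 difference was 1.05 beside -1.39 for all tested genes. However, 3 of the 5 were detected on all 6 arrays, and the median over all genes so detected was 0.83. With median scaling 4 of the 5 were called lower and 0 higher, and with cyclic loess 3 were called higher and 1 lower. Auh, an RNA-binding enoyl-CoA hydratase, was at least 12.6-fold lower (adjusted p = 0.000356 from limma), at 10.39 ± 0.26 in the GV oocytes and undetected in all 3 mutants, but its log2 difference was smaller than this bound under cyclic loess (-2.00) and with core centring (-2.30). Celf1, which binds GU-rich elements and promotes deadenylation, was higher by 1.21 (adjusted p = 0.041 from limma), but by -2.18 and thus lower with median scaling, and its call was lost without any single array other than Ago2-deficient replicate 3. Celf2, its relative, had a log2 difference of 1.05 and was not called (adjusted p = 0.0665 from limma), but it was called lower with median scaling (-2.29, adjusted p = 0.00604) and higher with cyclic loess (1.17, adjusted p = 0.0368) and without Ago2-deficient replicate 1 (1.35, adjusted p = 0.0185).

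Among the kinases, phosphatases and partners that modify or bind these proteins, 6 of 8 tested genes were lower, beside 44.8% of all tested genes, and none was higher, of 21 listed and 16 on the array. The 3 lower genes detected on all 6 arrays were Ywhaz, Anp32b and Dusp1, named after their values were seen, and a second tested probe of Ywhaz was not called at 0.13. The median log2 difference was -1.65. Ppp2ca, a catalytic subunit of the phosphatase PP2A, which acts on tristetraprolin, was at least 10.4-fold lower (adjusted p = 0.000472 from limma). Carm1, an arginine methyltransferase that modifies Elavl1, was at least 7.55-fold lower (adjusted p = 0.00104), and Akt2, a kinase of the Akt family that phosphorylates Khsrp and Zfp36l1, at least 4.59-fold lower (adjusted p = 0.00107). Ppp2ca, Carm1 and Akt2 were detected in no mutant oocyte and were tested only through the GV arrays. Under cyclic loess and core centring the log2 differences were smaller than the bounds, at -1.58 and -1.95 for Ppp2ca and at -1.53 and -1.31 for Carm1. Akt2 lost its call under cyclic loess (-0.37) and with core centring (-0.79). Ywhab, a 14-3-3 protein of the type that holds phosphorylated tristetraprolin, was not called at -0.31, but was called higher without Ago2-deficient replicate 1 (1.34, adjusted p = 0.0179 from limma) and lower with median scaling (-2.16, adjusted p = 0.0282).

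In the deadenylation machinery that the Zfp36 proteins recruit, 4 of 7 tested genes were lower and 2 higher, of 17 listed and 13 on the array, beside 44.8% lower and 17.4% higher among all tested genes. The 4 lower genes were detected in at most 1 mutant oocyte and were tested only through the GV arrays. In a fit of only the 2497 genes detected on all 6 arrays, 1128 were higher and 543 lower. There all 3 tested genes of this list were higher and none was lower. Cnot2, a scaffold subunit of CCR4-NOT, differed by -4.28 (adjusted p = 0.00163 from limma) and Cnot11 by -4.05 (adjusted p = 0.00182), each detected in 1 mutant oocyte, and the poly(A) nuclease subunit Pan2 was at least 15.1-fold lower (adjusted p = 0.000734). These kept their calls under all 5 scalings, but with cyclic loess the log2 difference shrank to -2.25 for Cnot2, -2.36 for Cnot11 and -1.92 for Pan2. Cnot4, a ubiquitin ligase of the complex, had a log2 difference of 1.98 and was not called (adjusted p = 0.0535 from limma). It was called higher with cyclic loess (3.63, adjusted p = 0.000438 from limma) and with core centring (2.56, adjusted p = 0.00191). The same held with array weights (2.37) and without Ago2-deficient replicate 1 (2.85). With no scaling (1.01) and with median scaling (-0.10) Cnot4 was not called. The higher genes were the deadenylase partners Tob1 and Btg4, at 1.95 and 1.63, named here because they were only 2, and neither kept its call with no scaling or with median scaling.

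The stress granule partners of Tia1 and Tial1 held 3 lower genes and 1 higher gene among 6 tested, of 12 listed and 11 on the array, beside 44.8% lower and 17.4% higher among all tested genes. The 3 lower genes were detected in no mutant oocyte and were tested only through the GV arrays. The fit of only the genes detected on all 6 arrays held 2 genes of this list. Of these 1 was higher and none lower, beside 1128 higher and 543 lower among the 2497 fitted. With core centring 1 of the 6 tested genes was lower. G3bp2, a core stress granule protein, was at least 9.70-fold lower (adjusted p = 0.00306 from limma), a bound that ran from 7.60-fold without Ago2-deficient replicate 1 to 14.9-fold in the absence of Ago2-deficient replicate 2, and its log2 difference was -1.92 with cyclic loess. Its partner Caprin1 was at least 9.40-fold lower (adjusted p = 0.000694 from limma), but lost its call with core centring (-1.56, adjusted p = 0.0658). G3bp1, a relative of G3bp2, was not called at 0.55, but was called in opposite directions under other settings. It was called lower with median scaling (-2.60, adjusted p = 0.00205 from limma) and with no scaling (-1.49, adjusted p = 0.04). It was called higher with cyclic loess (1.23, adjusted p = 0.0221) and without Ago2-deficient replicate 1 (1.06, adjusted p = 0.0222). Eif2ak1, a kinase that halts translation by phosphorylating eIF2alpha, was higher by 3.03 (adjusted p = 0.00153 from limma), but not called with median scaling (0.33).

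Well-known mRNAs with AU-rich elements were mostly too dim to compare. Of 25 listed, 21 were on the array, 6 were detected on no array, and 2 were detected on all arrays of a group and tested, both through the GV oocytes. Csf2, a cytokine mRNA, differed by -1.77 (adjusted p = 0.0288 from limma) and lost its call without any single array other than Ago2-deficient replicate 2. Junb, an immediate early gene, was not called at -0.07, with an SD of 2.47 among the mutants, but was called higher without Ago2-deficient replicate 1 (1.33, adjusted p = 0.0298 from limma) and lower with median scaling (-1.76, adjusted p = 0.0397). Fos, Myc and Tnf did not pass the filter, so no statement on their levels was made.

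**Figure D4:**
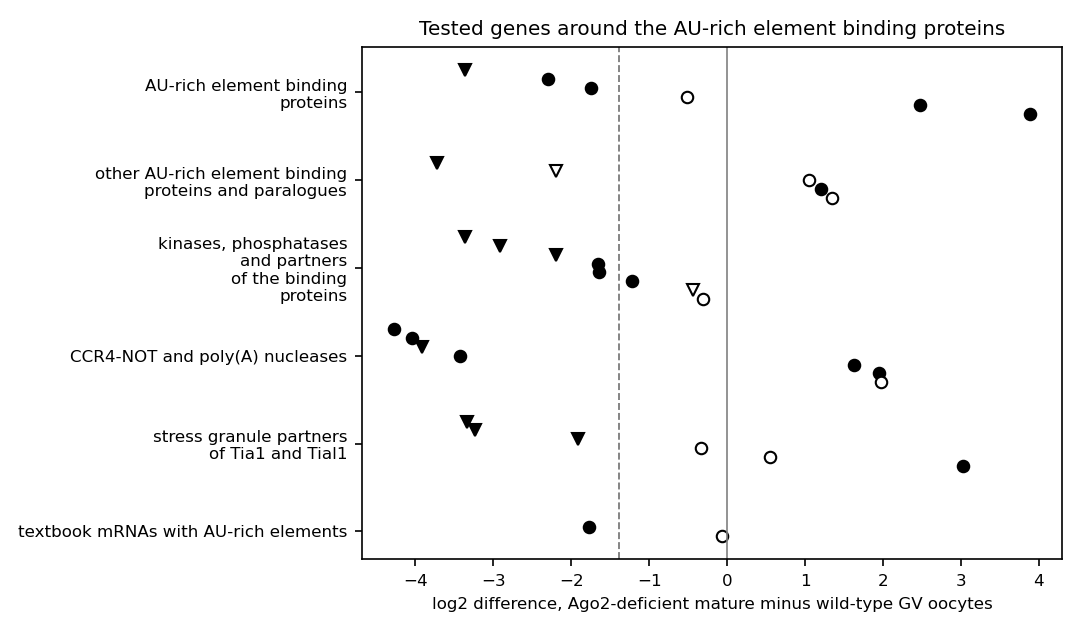
Log2 difference of each tested gene (horizontal axis, Ago2-deficient minus GV) in the members and 5 related lists. Called genes are filled, genes not called are open, and a triangle means that no Ago2-deficient array detected the gene. Triangles stand at the measured difference, which for Auh and G3bp2 is larger in size than the bound in the text. The dashed line at -1.39 marks the median over the tested genes; the members run from -3.37 to 3.89, and no kinase, phosphatase or partner lies right of 0, although Ywhab does so under cyclic loess, with core centring and without Ago2-deficient replicate 1.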

How the data were processed

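Amplified cDNA of single oocytes was transcribed to DIG-labelled cRNA and hybridized by the authors to Applied Biosystems V2.0 Mouse Genome Microarrays, read by chemiluminescence; the same amount of cRNA was used per array, so values compare shares of RNA. Each deposited file held a signal intensity without scaling between arrays, a signal-to-noise score, a flag code and a log2 value that the authors had quantile normalized over the 6 arrays. The log2 values of the series table were identical wherever both had one, and the series table left 2675 cells empty. No member's spot carried a flag code of 5000 or more.

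Probes with 1 symbol in the platform annotation were named (14411 of 33012, with 14402 gene IDs found in RefSeq's GRCm38.p6 table and 0 symbols changed). All 8018 probes detected (signal-to-noise ratio of at least 3) on the 3 arrays of at least 1 group entered a linear model in limma 3.58.1 (lmFit, eBayes; R 4.3.3), and the Benjamini-Hochberg adjustment ran over these probes. Genes with several tested probes were represented by the brightest. Figures were drawn with matplotlib 3.10.9. The fit was also run on simulated arrays with known changes in a small part of the probes and the same spread in both groups. That run does not cover the unequal spread of the groups seen here. Arrays left out kept the same probes.

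Members and lists were chosen with earlier results of these data known. Named besides the members were, in each list, up to 3 called genes with the largest differences among those whose groups did not overlap and the gene not called with the highest mean; Tob1, Btg4, Ywhaz, Anp32b and Dusp1 were named after their values were seen. The labels do not say whether oocytes came from separate animals, and the p-values therefore reflect only how these oocytes vary, which may be technical. The number of arrays limits the precision.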

Additional observations from a re-analysis of the deposited data

How the results depend on the processing

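The 21 alternatives changed the scaling, the filter, the variance model, the thresholds, the arrays or the source of the log2 values. The series table holds the same log2 values apart from its empty cells, so its use could hardly move a call. Zfp36 kept its call in all 21 alternatives. Members called higher numbered 1 instead of 2 with median scaling and without scaling, where Khsrp was lost. Members called lower numbered 1 instead of 3 with core centring, with no filter on dim probes, among probes detected throughout (only 3 members tested) and at an adjusted p under 0.01. Leaving out 1 array gave 1 to 3, with 1 in the absence of GV replicate 1 or of GV replicate 2. With the replicate block Elavl2 lost its call (adjusted p = 0.0573 from limma), as did Celf1 (adjusted p = 0.0936), and 1291 genes were higher and 3384 lower overall. Same-numbered arrays did not deviate together (r = -0.0487, 0.0275 and -0.0339 across genes), so the numbers were not taken to pair oocytes.

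Median scaling turned the log2 difference of Khsrp to -0.59, Celf1 to -2.18, Celf2 to -2.29, Cnot4 to -0.10 and G3bp1 to -2.60, and no scaling turned Celf1 to -1.08, Celf2 to -1.19 and G3bp1 to -1.49. Cyclic loess turned Zfp36l2 to 0.22, Ywhab to 1.30 and Junb to 1.57. Core centring turned Zfp36l2 to 1.29, Ywhab to 0.50, Junb to 0.90 and Csf2 to 0.37, and array weights turned Zfp36l2 to 0.17, Ywhab to 0.36 and Junb to 0.43. When 1 array was left out, Zfp36l2 ran from -1.79 to 0.25, Ywhab from -1.31 to 1.34 and Junb from -1.02 to 1.33. Among all genes tested, 312 were higher and 6220 lower with median scaling, 611 and 4774 without scaling, 1955 and 2510 with cyclic loess, and 1592 and 2475 with core centring. The cause of these shifts was not tested. Each member had 1 probe, so no other probe could be tried. Signals near the detection limit bound what can be said of Zfp36l1, Zfp36l2 and Elavl2 in the Ago2-deficient oocytes.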
